A study of Mus musculus with 9 samples.

Results

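The 38 genes described here were an imprinted gene set, chosen by name from known imprinted loci and from the growth network that these genes form. They were chosen with earlier results of these data known. Of the 38, 35 were matched by GENCODE M21 symbol and identifier among the 38293 genes listed in the count table, and 31 passed the filter on low counts and were tested among 15318 genes. Kcnq1ot1, Snrpn and Peg13 were not analysed here. The libraries were made from poly(A)-selected ventricular RNA of C57BL/6J mice of both sexes at postnatal day 7, and the study asked what becomes of the heart shortly after birth when cardiomyocytes lose Arid1a, which encodes a subunit of the SWI/SNF complex that remodels chromatin. The control group held 5 Arid1a f/f pups without Cre, and the Arid1a cKO group held 4 αMHC-Cre;Arid1a f/f pups. Both groups thus carried the floxed allele, and αMHC-Cre deletes it in cardiomyocytes while the other cells of the ventricle keep it. In such bulk tissue, fewer cells of a type and less RNA per cell cannot be told apart.

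An imprinted gene is expressed mainly from the copy inherited from 1 parent, a state set by DNA methylation laid down in the germ line at imprinting control regions. Imprinted genes lie in clusters in which protein-coding genes expressed from the paternal copy often sit beside noncoding RNAs expressed from the maternal copy. Many of them act on fetal and early postnatal growth, where Igf2 promotes growth and Igf2r, Grb10 and H19 restrain it, and many decline in the organs after birth. The libraries measured the total level of each gene and did not separate the parental copies.

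Promoter sequences of Zdbf2, Begain, Dlk1 and Meg3, all of which passed the test, are given as examples of how unlike these starts are. Each holds 250 bases before a RefSeq start on GRCm38.p6, printed on the strand of the gene, with each CG dinucleotide, the site of DNA methylation, in capitals. The RefSeq windows matched 30 of the 38 genes and gave 51 windows. The median number of CG dinucleotides was 13 in these 51 windows and 6 over all 32851 windows.
Zdbf2, upstream start, chr1:63200108-63200357 (+): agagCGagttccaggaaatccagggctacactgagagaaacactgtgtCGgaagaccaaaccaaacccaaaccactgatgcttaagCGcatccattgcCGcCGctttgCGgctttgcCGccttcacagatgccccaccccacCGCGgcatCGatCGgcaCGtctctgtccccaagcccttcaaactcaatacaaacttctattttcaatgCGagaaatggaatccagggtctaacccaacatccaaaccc
Zdbf2, downstream start, chr1:63273019-63273268 (+): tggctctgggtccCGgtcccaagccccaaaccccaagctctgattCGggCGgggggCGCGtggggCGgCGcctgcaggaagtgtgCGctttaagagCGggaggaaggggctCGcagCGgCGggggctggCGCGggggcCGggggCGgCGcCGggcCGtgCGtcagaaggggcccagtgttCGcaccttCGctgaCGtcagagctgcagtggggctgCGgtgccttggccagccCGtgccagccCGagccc
Begain, chr12:109068243-109068492 (-): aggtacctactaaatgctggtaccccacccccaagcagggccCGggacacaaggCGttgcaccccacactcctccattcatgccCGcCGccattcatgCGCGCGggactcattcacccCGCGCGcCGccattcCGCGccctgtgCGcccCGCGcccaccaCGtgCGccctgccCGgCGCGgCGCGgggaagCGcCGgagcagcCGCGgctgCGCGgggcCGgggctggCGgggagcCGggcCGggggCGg
Dlk1, chr12:109452573-109452822 (+): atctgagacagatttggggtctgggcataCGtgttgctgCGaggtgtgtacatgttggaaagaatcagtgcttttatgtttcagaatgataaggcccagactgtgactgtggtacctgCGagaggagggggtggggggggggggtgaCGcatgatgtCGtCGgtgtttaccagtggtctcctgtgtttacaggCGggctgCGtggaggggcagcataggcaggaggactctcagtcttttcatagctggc
Meg3, chr12:109540746-109540995 (+): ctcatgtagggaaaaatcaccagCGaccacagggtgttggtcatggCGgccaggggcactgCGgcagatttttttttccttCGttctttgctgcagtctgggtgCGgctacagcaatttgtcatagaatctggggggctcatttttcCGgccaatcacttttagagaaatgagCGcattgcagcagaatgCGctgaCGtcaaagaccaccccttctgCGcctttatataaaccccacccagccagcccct
For Begain the first of 5 windows is shown and for Meg3 the first of 2. The Begain window shown held 34 CG dinucleotides (22 to 37 over the 5) and the downstream Zdbf2 window 26, against 8 before Dlk1 and 10 in the Meg3 window shown (0 in the other). The 2 Zdbf2 starts lie 72.9 kb apart. The upstream window held 13 CG dinucleotides and 3 matches of TGCCGC, the core motif of ZFP57, a zinc finger protein that protects imprints, counted on both strands (other strand GCGGCA). That motif was found in 8.676% of all windows of this length, and the Meg3 window shown held 1 match and the other 0. GGAATG or CATTCC, the core motif of TEAD factors, was found in 12.642% of all windows, and 2 of the 5 Begain windows, which overlap each other, held 1. A match is a description of the letters and not evidence of binding.

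Several of these genes also carry microRNAs. RefSeq placed 29 hairpins inside the spans of the 38 genes: 14 in Mirg, 7 in Rtl1, 3 in Rian and 1 each in Mest, Usp29, H19, Igf2 and Meg3. Of the 7 inside Rtl1, 6 lie on the strand opposite to Rtl1, which is the strand of Meg3 and Rian. Mature sequences are shown for those of the growth genes, for 3 of those opposite to Rtl1 and for the only pair that shared a seed. The seed (bases 2 to 8) is in capitals.
miR-483-5p: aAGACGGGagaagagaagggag
miR-675-5p: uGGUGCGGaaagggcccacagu
miR-335-5p: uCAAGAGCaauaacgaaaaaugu
miR-127-3p: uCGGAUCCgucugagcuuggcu
miR-433-3p: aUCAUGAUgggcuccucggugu
miR-136-5p: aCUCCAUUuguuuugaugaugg
miR-453: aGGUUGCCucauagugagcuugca
miR-496a-5p: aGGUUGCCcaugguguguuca
miR-483 lies in Igf2, miR-675 in H19 and miR-335 in Mest. miR-127, miR-433 and miR-136 lie opposite to Rtl1. miR-453 and miR-496a-5p lie in Mirg and share the seed GGUUGCC. Poly(A) libraries do not measure mature microRNAs, so only the levels of the host genes are given below.

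The libraries held 31011055 to 40073801 counts, of which the matched imprinted genes took 0.499% to 0.532%, so that 1 count was worth 0.0242 to 0.0323 CPM (the count as a share of the library total after TMM scaling, times 1e6). Arid1a stood at 128 to 148 CPM in controls and at 100.3 to 113 CPM in Arid1a cKO libraries (edgeR's quasi-likelihood test, adjusted p = 0.00132 at a log2 fold change of -0.39 with SE 0.06). The defining markers of cardiomyocytes were present, with a summed level of 40561 to 47916 CPM in controls and 36743 to 41763 CPM in cKO libraries. The summed level of 9 fibroblast markers moved with genotype. It was 7190 to 8532 CPM in the control group and 8770 to 9817 CPM in the cKO group, with no overlap. A sum weighs the most abundant markers most. Of the 9 markers, 4 rose and 0 fell at an adjusted p under 0.05 by edgeR. Log2 fold changes were positive for 7 and negative for 2 (median 0.14, lowest -0.26). Rps3a3, a copy of a ribosomal protein gene, parted the 9 libraries in another way, at 0.345 to 0.521 CPM in control replicates 1 and 2 and cKO replicates 1 to 3, and at 99.7 to 112 CPM in control replicates 3 to 5 and cKO replicate 4. These are called the Rps3a3-low and Rps3a3-high libraries, and for every imprinted gene that passed, and for some other genes, the difference inside each of these sets is given as the difference in mean log2(CPM + 0.5). The added 0.5 CPM draws the differences of genes near or below 1 CPM towards 0, so for these the fitted log2 fold change in the Rps3a3-low libraries is given too.

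Among the 31 tested imprinted genes, 8 (25.8%) passed an adjusted p threshold of 0.05, against 16.3% of all 15318 genes tested. The set was chosen with earlier results known, and the excess over these background shares was not tested. Of the 8, 2 were higher in the Arid1a cKO (background 8.25% of all genes) and 6 were lower (background 8.03%). With a fold change over 1.5 as well, 5 of the 31 (16.1%) were called against 6.72% of all genes: Begain and Rtl1 were higher (background 4.01%), and Zdbf2, Dlk1 and Magel2 were lower (background 2.72%). Groups did not overlap for 5 of the 31, against 16.7% of all genes, with Begain higher (background 8.16%) and Zdbf2, Rian, Commd1 and Slc22a3 lower (background 8.58%). The median log2 fold change of the 31 was -0.05 and that of all genes 0.01, with 11 positive and 20 negative values. The expressed allele of each gene was taken from a list and was not measured in these hearts. Genes listed as paternally expressed gave 2 higher and 3 lower of 17 tested. Those listed as maternally expressed gave 0 higher and 3 lower of 13 by edgeR, where Slc22a3, also lower, was the only further one at an unadjusted p under 0.05. Rtl1 and Magel2 lay close to the filter, since only 2 of 5 control libraries held at least 10 counts of Rtl1 and only 2 of 4 cKO libraries held as many of Magel2, and with a filter at a mean of 1 CPM both dropped out and 6 of 29 passed. In the fit to the 5 Rps3a3-low libraries, 2 control and 3 cKO, 3 of the 31 passed: Zdbf2, Dlk1 and Meg3. The share of all genes that passed in this smaller fit is not given here. The drop from 8 is thus not a result about these genes.

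**Figure D1:**
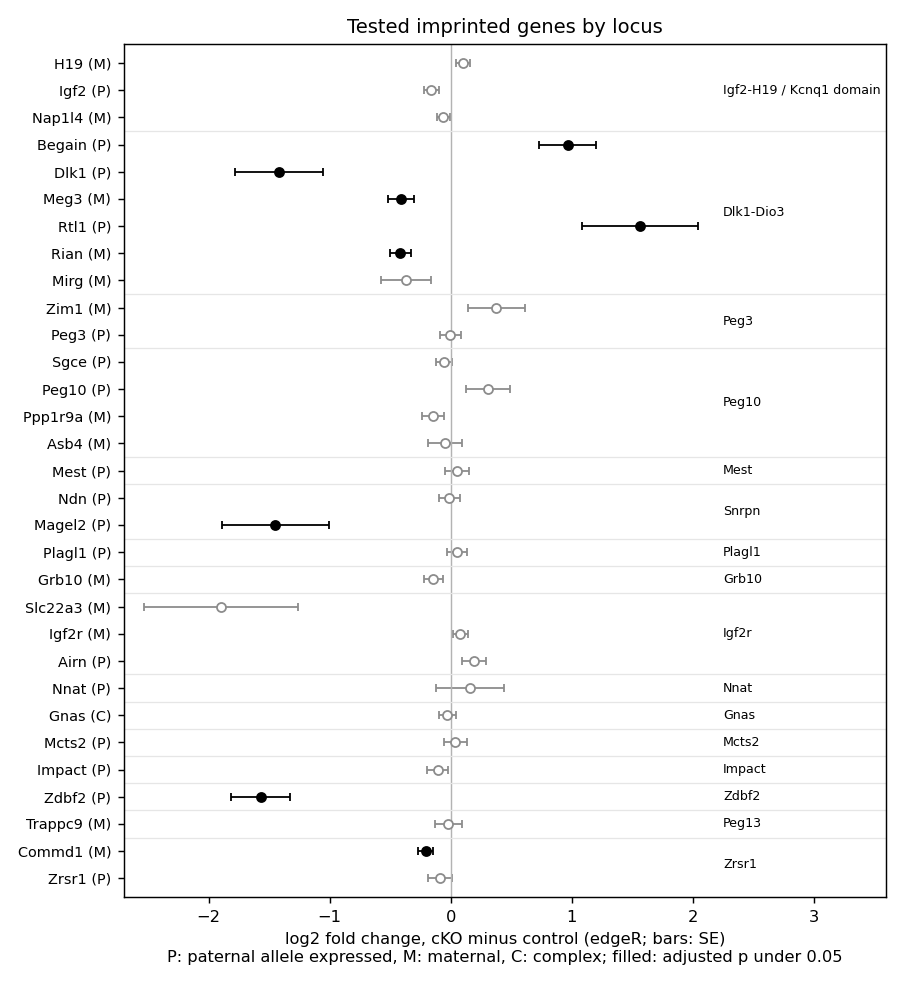
Log2 fold change (cKO minus control, edgeR; x axis) of each of the 31 tested imprinted genes, grouped by locus on the y axis, with P, M or C for the allele listed as expressed; bars are SE and filled points have an adjusted p under 0.05. The filled points lie mostly in the Dlk1-Dio3 locus, where 5 of 6 tested genes passed, and at Zdbf2, Magel2 and Commd1.

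The Dlk1-Dio3 locus on chromosome 12 held most of the genes that passed: 5 of its 6 tested genes, 2 higher (background 8.25% of all genes) and 3 lower (background 8.03%). Of these 5, Dlk1 and Meg3 passed in the fit to the Rps3a3-low libraries and with the fibroblast marker covariate, and Meg3 and Rian without cKO replicate 2. Its paternally expressed coding genes did not move together. Dlk1 (chr12:109452823-109463336), which encodes a transmembrane relative of the Notch ligands that restrains adipocyte differentiation, held 13.1, 11.6, 13.4, 4.28 and 16.4 CPM in control replicates 1 to 5. It held 6.72, 3.63, 4.11 and 3.22 CPM in cKO replicates 1 to 4. Control replicate 4 lay among the cKO libraries, and the other 4 controls lay above all of them. The log2 fold change was -1.42 with SE 0.36 (adjusted p = 0.0265), from 11.8 ± 4.53 CPM (SD, n = 5) to 4.42 ± 1.57 CPM (n = 4). Inside the Rps3a3-low libraries the difference was -1.32, and inside the Rps3a3-high libraries -1.48. Control replicate 4 also held the lowest fibroblast marker sum of all 9 libraries, and the part of this in its Dlk1 level was not tested. Without control replicate 4 the log2 fold change was -1.63 (adjusted p = 0.000745). It no longer passed without control replicate 1 (adjusted p = 0.0519), control replicate 3 (0.0533), cKO replicate 2 (0.0970), cKO replicate 3 (0.0728) or cKO replicate 4 (0.0811).

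Begain (chr12:109032187-109068217), which encodes a protein bound to a postsynaptic guanylate kinase, moved the other way. Its controls held 1.11, 0.927, 0.831, 0.724 and 1.002 CPM, and its cKO libraries held 1.40, 2.39, 2.06 and 1.36 CPM. The groups did not overlap, and the log2 fold change reached 0.97 with SE 0.23 (adjusted p = 0.0142). Inside the 2 library sets the difference in log2(CPM + 0.5) was 0.67 (low) and 0.46 (high), and the fit to the low set gave 0.94 (adjusted p = 0.160). Without cKO replicate 2 the adjusted p was 0.0535. Rtl1 (chr12:109589193-109600330), a coding gene derived from a retrotransposon, was near the limit of detection, at 0.241, 0.174, 0.443, 0.346 and 0.162 CPM in controls (5 to 16 counts). It stood at 0.249, 1.56, 0.840 and 0.605 CPM in cKO libraries (8 to 59 counts). Replicate 1 of the cKO lay among the controls and the other 3 cKO libraries lay above all controls. The log2 fold change was 1.56 with SE 0.48 (adjusted p = 0.0455). The differences in log2(CPM + 0.5) within the sets were 0.85 and 0.45, and the fit to the low set gave 2.10 (adjusted p = 0.189). In 7 of 9 fits without 1 library it did not pass, with an adjusted p of up to 0.182 and a log2 fold change of 1.04 without cKO replicate 2. Exons of Rtl1 share 8.12% of their bases with microRNA genes on the opposite strand.

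Of the maternally expressed noncoding RNAs of the locus, Meg3 and Rian were lower by similar amounts. Meg3 (chr12:109541001-109571726), the long noncoding RNA at the head of the maternal transcripts, held 134, 119, 128, 88.8 and 124 CPM in controls and 95.2, 88.8, 91.3 and 82.3 CPM in cKO libraries. Control replicate 4 again lay among the cKO libraries. Its log2 fold change was -0.41 with SE 0.10 (adjusted p = 0.0191). It was -0.46 and -0.44 within the sets. Leaving out control replicate 3 gave an adjusted p of 0.0517, and leaving out cKO replicate 4 gave 0.0585. Rian (chr12:109603940-109661716), a host of small nucleolar RNAs, held 66.4, 74.8, 85.2, 70.4 and 73.9 CPM in controls and 57.0, 49.5, 55.1 and 60.7 CPM in cKO libraries. These groups did not overlap. Rian had a log2 fold change of -0.42 with SE 0.08 (adjusted p = 0.00561) and passed in all 9 fits without 1 library, but not in the fit to the Rps3a3-low libraries (adjusted p = 0.0680). Its differences within the sets were -0.39 and -0.32. Mirg, which carries the microRNA cluster of the locus, was at 2.76 ± 0.728 CPM (n = 5) and 2.14 ± 0.220 CPM (n = 4), and its log2 fold change of -0.37 with SE 0.21 did not pass (adjusted p = 0.266). Dio3, the deiodinase that inactivates thyroid hormone, had 0 or 1 count in every library and was not tested.

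**Figure D2:**
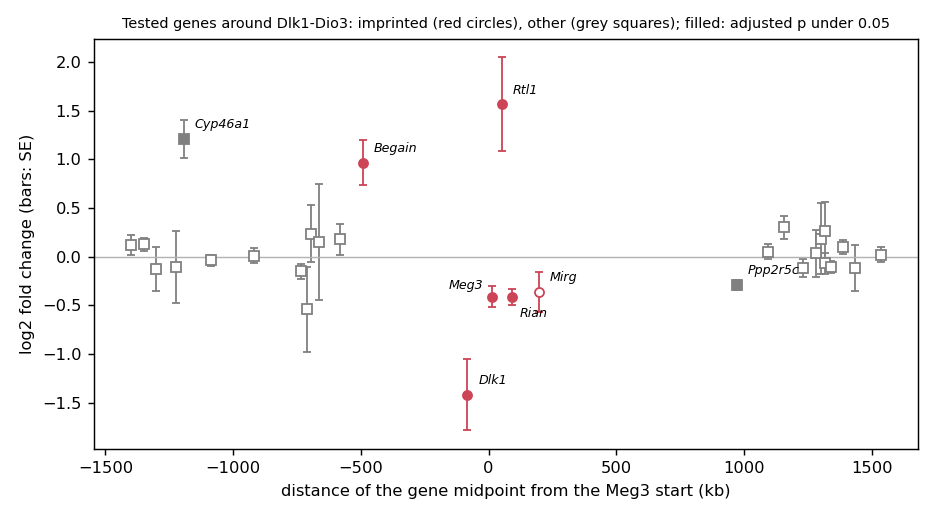
Log2 fold change (cKO minus control, y axis; bars are SE) of tested genes against the distance of their midpoint from the Meg3 start in kb (x axis), with imprinted members as red circles, other genes as grey squares and filled symbols for an adjusted p under 0.05. Imprinted genes of the locus lie on both sides of 0, at 0.97 for Begain, -1.42 for Dlk1, 1.56 for Rtl1 and -0.42 for Rian.

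The genes beside the locus were compared for context. Of the 2 nearest tested genes on each side, Wars, Wdr25 and Dync1h1 did not pass. Ppp2r5c, a regulatory subunit of protein phosphatase 2A that was singled out after its value was seen, fell by 0.29 (SE 0.05, adjusted p = 0.00192), 166 kb from the nearest imprinted gene of the set. Cyp46a1, the cholesterol 24-hydroxylase, also singled out after its value was seen, was higher by 1.21 (SE 0.19, adjusted p = 0.00129) at more than 1 Mb from Meg3. Over all loci, the 2 nearest tested genes on each side made 64 neighbours, of which 13 (20.3%, against 16.3% of all genes tested) passed, 6 higher and 7 lower, with a median log2 fold change of 0.05. Large differences among them were at Mrgprh, a receptor gene beside Igf2r (-1.50, SE 0.29, adjusted p = 0.00433), Ctsz, a lysosomal protease beside Gnas (0.56, SE 0.08, adjusted p = 0.00043), and Fignl1, a repair ATPase beside Grb10 (0.56, SE 0.10, adjusted p = 0.00342).

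Zdbf2 (chr1:63273265-63314576), a paternally expressed zinc finger gene that promotes growth of newborn mice, had the smallest adjusted p of the 31 genes. Controls held 4.09, 6.52, 7.81, 7.61 and 7.02 CPM and cKO libraries held 2.21, 1.88, 1.54 and 3.24 CPM. No control lay as low as the highest cKO library, although control replicate 1 stood below the other controls. Zdbf2 changed by -1.57 on the log2 scale with SE 0.24 (adjusted p = 0.00103), from 6.61 ± 1.497 CPM (n = 5) to 2.22 ± 0.738 CPM (n = 4). It passed in all 9 fits without 1 library, with log2 fold changes from -1.82 to -1.43, and in the fit to the Rps3a3-low libraries (adjusted p = 0.0187). In edgeR's fit with the fibroblast marker covariate it had -1.30 and did not pass (adjusted p = 0.114). Differences within the sets were -1.27 and -1.09. The gene model of GENCODE M21 begins at the downstream of the 2 RefSeq starts shown above, and whether exons near the upstream start were counted is not given in the sources used here.

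Magel2 (chr7:62377010-62381640), a MAGE family gene of the Prader-Willi region, was scarce, at 0.782, 0.840, 0.831, 0.189 and 0.873 CPM in controls (6 to 30 counts) and 0.373, 0.318, 0.145 and 0.194 CPM in cKO libraries (5 to 12 counts). Control replicate 4 again lay among the cKO libraries. The log2 fold change was -1.45 with SE 0.44 (adjusted p = 0.0432), and it passed in 2 of 9 fits without 1 library. Within the sets the differences in log2(CPM + 0.5) were -0.76 and -0.64, and the fit to the low set gave -1.53 (adjusted p = 0.109). Ndn, its neighbour in the same region, which encodes necdin, stood at 22.0 ± 1.94 CPM (n = 5) and 21.8 ± 1.66 CPM (n = 4). Commd1 (chr11:22896136-22982382), which encodes a regulator of copper transport and of NF-κB, held 80.2, 73.5, 80.8, 73.3 and 69.4 CPM in controls and 64.9, 66.8, 66.5 and 63.4 CPM in cKO libraries. These groups did not overlap, but the difference was small, at -0.21 on the log2 scale with SE 0.06 (adjusted p = 0.0455), and it passed in 1 of 9 fits without 1 library. Its differences within the sets were -0.21 and -0.23. Zrsr1, the splicing factor gene inside the span of Commd1 on the other strand, had a log2 fold change of -0.09 (adjusted p = 0.582). Exons of both genes overlap on opposite strands, over 6.94% of the Commd1 bases and 9.17% of the Zrsr1 bases.

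**Figure D3:**
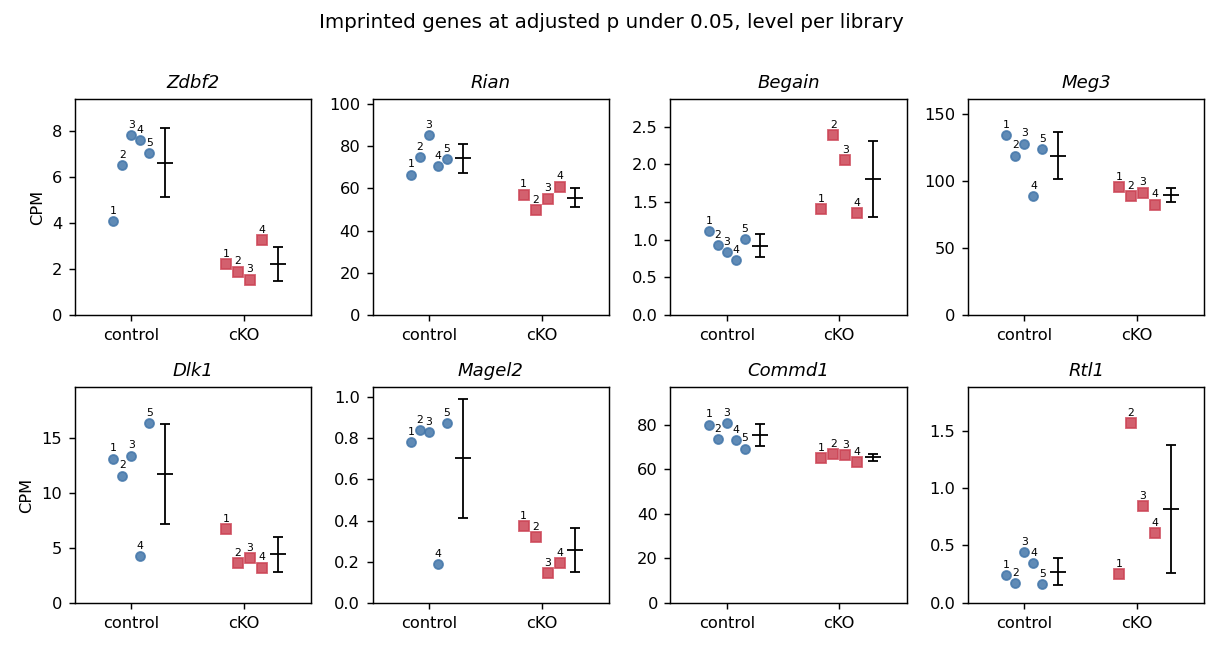
Level in CPM (y axis, from 0) of the 8 imprinted genes at an adjusted p under 0.05 in each control (circles) and cKO (squares) library, numbered by replicate; the bar is the mean and SD. Control replicate 4 sits with the cKO libraries for Dlk1, Meg3 and Magel2, whereas for Zdbf2, Rian, Begain and Commd1 the groups do not overlap.

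Igf2 and H19 share enhancers and an imprinting control region on chromosome 7, and neither passed alone. Igf2 held 868, 805, 869, 751 and 888 CPM in controls and 718, 759, 784 and 735 CPM in cKO libraries. Control replicate 4 lay among the cKO libraries. The log2 fold change was -0.16 with SE 0.06 (adjusted p = 0.122), and -0.15 and -0.18 inside the low and high library sets. H19 held 542, 526, 559, 506 and 541 CPM in controls and 536, 608, 561 and 590 CPM in cKO libraries, with a log2 fold change of 0.10 with SE 0.06 (adjusted p = 0.271). Nap1l4, a histone chaperone gene listed as maternally expressed, lies further along chromosome 7 and was grouped with them by position only. It had a log2 fold change of -0.06. Ascl2 and Phlda2, placental genes grouped with them in the same way, held at most 6 counts and 1 count per library and were not tested.

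The ratio of a pair of genes within a library hardly depends on library scaling, and the ratios of 4 pairs were tested by two-sided exact permutation tests of 5 against 4 libraries, in which the smallest p is 0.00794. They were taken as log2 of (CPM + 0.5) within each library. The Igf2 to H19 ratio was 0.57 to 0.71 in the 5 controls and 0.32 to 0.48 in the 4 cKO libraries, a difference of -0.26 (exact permutation p = 0.00794, adjusted p over 4 ratios = 0.0317). These ranges did not overlap. The Igf2 to Igf2r ratio was 0.82 to 1.09 in controls and 0.69 to 0.76 in cKO libraries, a difference of -0.24 (exact permutation p = 0.0159, adjusted p = 0.0317). The Dlk1 to Meg3 ratio differed by -0.86 (exact permutation p = 0.0397, adjusted p = 0.0529), with ranges from -4.22 to -2.88 and from -4.48 to -3.73 that overlapped through control replicate 4. The ratio of Peg10 to Sgce, neighbours that are both paternally expressed, differed by 0.33 (exact permutation p = 0.103, adjusted p = 0.103). Without 1 library, the Igf2 to H19 difference lay between -0.29 and -0.23 and that of Igf2 to Igf2r between -0.27 and -0.20. With 8 libraries the smallest exact permutation p was 0.0179 or 0.0286, so that the adjusted p of both, up to 0.0714, says nothing on their stability. Igf2 exons share 62.8% of their bases with another gene model on the same strand that is not listed in the table, so it is not known how reads in those bases were counted.

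Imprinted genes that act on the growth pathway at the receptor did not pass. Igf2r, the receptor that carries Igf2 to lysosomes, held 430, 416, 408, 427 and 481 CPM in controls and 445, 449, 477 and 454 CPM in cKO libraries (log2 fold change 0.08, SE 0.06, adjusted p = 0.435). Grb10, an adaptor that inhibits insulin and IGF receptor signalling, held 486, 566, 507, 585 and 541 CPM against 531, 435, 507 and 473 CPM (-0.14, SE 0.08, adjusted p = 0.239). The ranges of both genes overlapped. Plagl1, a zinc finger factor that acts on other imprinted genes, held 121, 133, 146, 139 and 145 CPM in controls and 152, 119, 143 and 154 CPM in cKO libraries (0.05, SE 0.08, adjusted p = 0.712).

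Peg3, a zinc finger gene of maternal behaviour and growth, held 106, 117, 117, 129 and 136 CPM in controls and 128, 103, 128 and 124 CPM in cKO libraries, with a log2 fold change of -0.0030 with SE 0.09 (adjusted p = 0.987). Mest, a hydrolase family gene of mesoderm, held 347, 343, 409, 470 and 397 CPM in controls and 364, 412, 383 and 471 CPM in cKO libraries (0.05, SE 0.10, adjusted p = 0.775). Gnas, which encodes the stimulatory G protein alpha subunit, held 1595, 1568, 1427, 1324 and 1390 CPM in controls and 1417, 1515, 1437 and 1366 CPM in cKO libraries (-0.03, SE 0.07, adjusted p = 0.834). All 3 overlapped between the groups. Opposite-strand genes share 23.1% of Mest exon bases and 22.0% of Gnas exon bases.

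**Figure D4:**
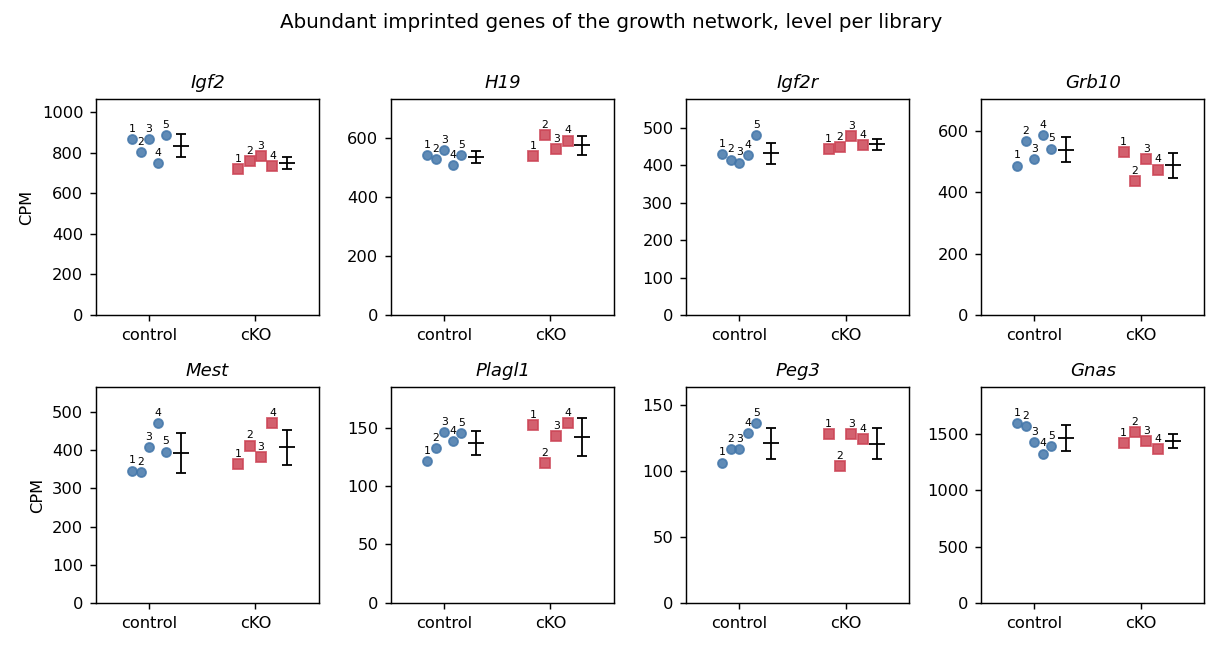
Level in CPM (y axis, from 0) of 8 abundant imprinted genes of the growth network in each control (circles) and cKO (squares) library, numbered by replicate; the bar is the mean and SD. None of the 8 passed an adjusted p of 0.05, and all 8 pairs of ranges overlap.

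The remaining genes did not pass. At the Igf2r locus, Slc22a3, a cation transporter, held 0.812, 0.956, 1.08, 5.28 and 0.744 CPM in controls and 0.467, 0.636, 0.406 and 0.387 CPM in cKO libraries. Its groups did not overlap, and its log2 fold change of -1.89 with SE 0.64 (adjusted p = 0.0691) became -0.92 (adjusted p = 0.0473) without control replicate 4. Inside the low and high library sets the difference in log2(CPM + 0.5) was -0.47 and -1.34, and the fit to the low set gave -0.80 (adjusted p = 0.289). With the fibroblast marker sum, which was higher in the cKO libraries, as a covariate the direction turned, to 0.47 (adjusted p = 0.857). Airn, the noncoding RNA that silences the paternal copy of Igf2r, had a log2 fold change of 0.19 with SE 0.10 (adjusted p = 0.213). In the Peg10 cluster, the values were 0.31 for the retrotransposon-derived gene Peg10, -0.05 for Sgce, a sarcoglycan, -0.15 for Ppp1r9a, a neurabin, and -0.05 for Asb4. Zim1, a zinc finger gene beside Peg3, was at 0.38, but its differences in log2(CPM + 0.5) pointed opposite ways inside the low and high library sets, at 0.75 and -0.23. Usp29 in the same cluster held 0 to 5 counts and was not tested. The other 4 tested genes were within 0.16 of 0 on the log2 scale, at 0.16 for Nnat, 0.04 for Mcts2, -0.11 for Impact and -0.02 for Trappc9, none of which passed.

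Levels between genes are compared per kb of exon, as CPM per kb over the exon union of GENCODE M21, which understates genes with many annotated isoforms. H19 stood highest in controls at 217 ± 8.06 CPM per kb (n = 5), followed by Igf2 at 146 ± 9.93, Gnas at 131 ± 10.4, Mest at 99.6 ± 13.2, Nap1l4 at 68.5 ± 1.96, Grb10 at 59.1 ± 4.48 and Igf2r at 46.4 ± 3.07. Gnas and Igf2 lie within their spread of each other. The genes that passed were at 12.7 CPM per kb for Commd1, 6.56 for Meg3, 4.07 for Rian, 2.08 for Dlk1, 0.522 for Zdbf2, 0.209 for Begain, 0.152 for Magel2 and 0.0430 for Rtl1. By count, Gnas, Igf2, H19, Grb10, Igf2r and Mest held 79.3% to 81.9% of all counts of these genes, and none of the 6 passed.

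The wider growth pathway was described with lists chosen with earlier results of these data known. In the IGF growth axis, 7 of 19 genes (36.8%) passed, against 16.3% of all genes tested, with 6 higher and 1 lower and a median log2 fold change of 0.16 (0.01 for all genes). With the sum of fibroblast markers, which was higher in the cKO libraries, as a covariate, 3 of the 19 passed. The share of all genes that passed in that fit is not given here. Igf2bp1, an RNA-binding protein of Igf2 messenger RNA, rose from 2.06 ± 0.455 CPM (n = 5) to 7.02 ± 1.48 CPM (n = 4), a log2 difference of 1.77 with SE 0.20 (adjusted p = 9.36e-05). Igf1r, the receptor for the ligands IGF1 and IGF2, rose from 18.4 ± 1.45 to 36.5 ± 3.32 CPM (0.99, SE 0.08, adjusted p = 1.1e-05). Igf2bp3, a relative of Igf2bp1, rose by 0.91 (SE 0.13, adjusted p = 0.000737), and Igfbp3, a binding protein of the ligands, rose by 0.57 (SE 0.11, adjusted p = 0.00505). None of these 4 genes overlapped between the groups, and in the order named the differences inside the low and high library sets were 1.42 and 1.89, 0.96 and 1.06, 0.95 and 1.09, and 0.58 and 0.42. Igf1 itself had a log2 fold change of 0.02 with SE 0.12 (adjusted p = 0.948). Insr, the insulin receptor, stood at -0.23 with SE 0.08 and did not pass (adjusted p = 0.0652), although its groups did not overlap.

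Among 32 tested genes of a list of other imprinted genes, 9 (28.1%) passed, against 16.3% of all genes tested, with 7 higher and 2 lower and a median log2 fold change of 0.09. Of the 32, 4 passed in the Rps3a3-low libraries and 1 with the fibroblast marker sum as a covariate. The share of all genes that passed in either fit is not given here. Among the 9 that passed, the 4 with the largest differences were Htr2a, a serotonin receptor (1.44, SE 0.20, adjusted p = 0.000532), Ddc, an amine-synthesising decarboxylase (0.64, SE 0.17, adjusted p = 0.0242, with groups that overlapped), Kcnq1, a potassium channel (-0.59, SE 0.10, adjusted p = 0.00147), and Ago2, an effector of microRNA silencing (0.48, SE 0.09, adjusted p = 0.00346). Ddc passed in 5 of 9 fits without 1 library (adjusted p up to 0.0875) and the other 3 in all 9. Inside the low and high library sets the differences were 1.01 and 1.45 for Htr2a, 0.35 and 0.89 for Ddc, -0.64 and -0.74 for Kcnq1 and 0.52 and 0.54 for Ago2. Kcnq1 lies on the same chromosome as Igf2 and H19, and its groups did not overlap, at 61.8 ± 5.79 CPM (n = 5) and 41.0 ± 5.17 CPM (n = 4). Kcnq1ot1 is transcribed antisense to Kcnq1, and whether counting used the strand is not given in the sources used here. Cdkn1c, a growth-restraining cell cycle inhibitor gene near Kcnq1, had a log2 fold change of -0.14 (adjusted p = 0.395). Of 18 tested genes of a list of factors linked to imprints, 3 (16.7%) passed, a share near the 16.3% of all genes. Lin28b, an RNA-binding repressor of let-7, rose by 0.92 (SE 0.22, adjusted p = 0.0142), Uhrf1, which directs maintenance methylation, rose by 0.52 (SE 0.14, adjusted p = 0.0248) and Zfp445, a zinc finger protein that protects imprints, fell by 0.27 (SE 0.08, adjusted p = 0.047). Without 1 library, Lin28b passed in all 9 fits, Uhrf1 in 4 (adjusted p up to 0.0746) and Zfp445 in 2 (adjusted p up to 0.120). The median of the 18 was 0.00.

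**Figure D5:**
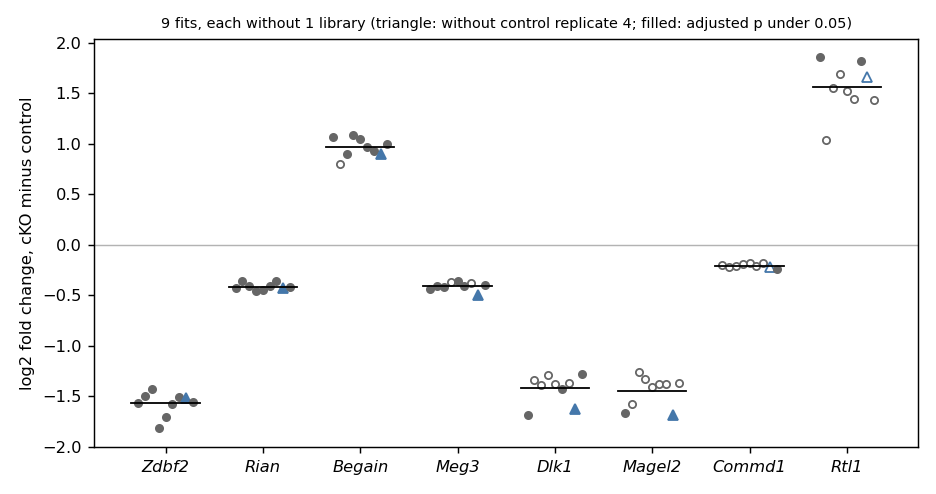
Log2 fold change (cKO minus control, y axis) of the 8 passing imprinted genes in each of 9 fits that left out 1 library (points; triangle for control replicate 4), with the value of all 9 libraries as a line; filled points have an adjusted p under 0.05. Zdbf2 and Rian stay filled in all 9 fits, whereas Rtl1, Magel2 and Commd1 are filled in 2, 2 and 1 of 9.

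The fibroblast marker sum moved with genotype, so it was also entered in the fit. Its ranges did not overlap between the groups, so this fit can hardly part the sum from genotype. SE rose in it, from 0.08 to 0.16 for Rian and from 0.23 to 0.44 for Begain. The share of all genes that passed in it is not given here. With the log2 of that sum as a covariate, 3 of the 31 genes passed, all lower. Their log2 fold changes were larger there than without the covariate, at -2.78 against -1.42 for Dlk1 (adjusted p = 0.00448), -3.04 against -1.45 for Magel2 (adjusted p = 0.0235) and -0.74 against -0.41 for Meg3 (adjusted p = 0.0315). Zdbf2 had a log2 fold change of -1.30 (adjusted p = 0.114), Rian -0.40 (adjusted p = 0.222) and Begain 0.60 (adjusted p = 0.585) in that fit. Arid1a itself had -0.39 (adjusted p = 0.108) there. Of the other marker lists, 1 of 7 endothelial, 1 of 6 epicardial and 1 of 7 cardiomyocyte markers were lower and 1 of 3 atrial markers and the 1 tested adipocyte marker were higher, with 0 of 6 mural, 0 of 6 macrophage and 0 of 5 erythroid markers passing by edgeR (2, 1 and 2 at an unadjusted p under 0.05). Log2 fold changes were negative for all 6 epicardial markers (median -0.51, 1 at an unadjusted p under 0.05) and for 6 of 7 cardiomyocyte markers (median -0.12, 4 at an unadjusted p under 0.05). They were positive for all 6 macrophage markers (median 0.40) and all 5 erythroid markers (median 0.49). The part of these lists in the results was not tested. Skeletal muscle markers summed to at most 0.159 CPM in any library.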

How the data were processed

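Poly(A) RNA of mouse ventricles at postnatal day 7 was sequenced in 9 libraries, 5 control and 4 Arid1a cKO, each grouped by its label. The authors deposited raw counts per gene with no normalization, made from single-end reads of a stranded kit on mm10; the submitters' processing notes name STAR 2.4.2a and HTSeq 0.6.1. The annotation and the strand setting are not given in the sources used here, so genes that overlap or lie antisense are uncertain, as are near-identical copies. Symbols came from GENCODE M21, in which 36429 of 38293 identifiers (99.82% of counts) were found, and sequences from RefSeq (GRCm38.p6). The table held 0 other sample columns.

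edgeR 4.0.16 in R 4.3.3 (TMM scaling, filterByExpr with a minimum count of 10, robust quasi-likelihood test, genotype alone) was run on all 15318 genes kept, two-sided, with Benjamini-Hochberg adjustment. A gene passed at an adjusted p under 0.05 and was called at over 1.5-fold as well, as in the study, whose own test was DESeq2. CPM used TMM-scaled totals. On simulated data 191 of 200 changed genes were recovered, with 13 false calls. The changed genes had means over 200 counts and were moved by 1 on the log2 scale. This says nothing on recovery of scarcer genes or smaller differences. The methods name 4 controls and the labels 5; all were used. The edgeR p-values weigh the difference between the groups against the spread among libraries of a group, and library totals limit low genes. The members and lists were chosen with earlier results of these data known. Every library value was given for genes that passed and for Igf2, H19, Igf2r, Grb10, Mest, Plagl1, Peg3 and Gnas, and up to 4 passing genes with the largest differences were named from each other list, of which 1 is not reported here; Slc22a3, Igf1, Insr, Cdkn1c, Cyp46a1 and Ppp2r5c were named after their values were seen. The fit was repeated with DESeq2 1.42.0 (Wald test), upper-quartile or RLE scaling, TMM without the 10 most abundant genes, no filter, a mean of at least 1 CPM, with Xist, the library set or the fibroblast marker sum as a term, on the Rps3a3-low libraries alone, with a replicate block and without each library in turn.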

Additional observations from a re-analysis of the deposited data

Results flagged for a closer look

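Over 62 group values of the tested imprinted genes, 6 held a library whose gap to the nearest other exceeded Dixon's 95% critical value (0.829 of the range for 4 libraries, 0.71 for 5). Chance flags about 1 in 20 groups. In controls, replicate 4 was high for Slc22a3, at 5.28 CPM against at most 1.08 in the other 4, and low for Magel2, at 0.189 CPM against at least 0.782. In the Arid1a cKO, replicate 1 was low for Nnat, at 0.56 CPM against at least 1.39, and high for Impact, at 38.5 CPM against at most 31.04. Replicate 2 of the cKO was low for Peg3, at 103 CPM against at least 124, and replicate 4 was high for Peg10, at 15.3 CPM against at most 9.94.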

How the results depend on the processing

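Of 617 log2 fold changes of single imprinted genes under the alternatives, 533 kept their direction and their side of the threshold, 50 no longer passed, 2 newly passed (Peg10 with the library set as a term, at 0.48, and Slc22a3 without control replicate 4) and 32 changed sign, all of the latter in genes that had not passed. The count of 8 imprinted genes at an adjusted p under 0.05 was 8 with DESeq2, 3 in the Rps3a3-low libraries, 5 with Xist as a covariate, 3 with the fibroblast marker covariate, 6 without a filter and 3 to 7 without 1 library, lowest without cKO replicate 2 or 4. It was 4 without control replicate 1 or 3 or cKO replicate 3, and 5 without control replicate 2. The count of 5 called at 1.5-fold was 5 with DESeq2, 2 in the Rps3a3-low libraries, 3 with Xist, 3 with the fibroblast covariate, 3 at a mean of at least 1 CPM (which drops Rtl1 and Magel2 from the test) and 1 to 5 without 1 library, lowest without cKO replicate 2. The 9 passing genes among other imprinted genes became 4 in the Rps3a3-low libraries and 1 with the fibroblast covariate, the 7 of the IGF axis became 3 with that covariate, and the 3 imprint factors became 0 in both edgeR fits (1 and 2 at an unadjusted p under 0.05). The share of all genes that passed in these fits is not given here, and the cause was not tested. Arid1a had -0.33 in the Rps3a3-low libraries and -0.39 with the fibroblast covariate, neither of which passed. The Igf2 to H19 and Igf2 to Igf2r differences were -0.24 and -0.26 in the Rps3a3-low libraries, where the exact permutation p could not fall below 0.1. Without 1 library, where it could not fall below 0.0179 or 0.0286, ratio differences ranged from -0.29 to -0.23 for Igf2 to H19, -0.27 to -0.20 for Igf2 to Igf2r, -1.07 to -0.73 for Dlk1 to Meg3 (passing without control replicate 4 or cKO replicate 1) and 0.21 to 0.41 for Peg10 to Sgce.

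Replicate numbers did not pair the samples: correlations of deviations were -0.05, 0.07, -0.01 and 0.30, and 0 of 4 cKO libraries correlated best with their own number. With the replicate block, 5 imprinted genes passed and 3 were called, and 1 imprint factor passed. Magel2, Commd1 and Rtl1 no longer passed. The Igf2 to H19 and Igf2 to Igf2r differences were -0.24 and -0.25 in pairs, for which no exact sign-flip p can fall below 0.125.

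Where the sign changed, the new values lay within 0.5 of 0 on the log2 scale, although Slc22a3 came from -1.89. In the Rps3a3-low libraries the values were 0.0039 for Asb4, 0.050 for Ndn, 0.10 for Peg3 and 0.073 for Zrsr1. With the fibroblast covariate they were 0.25 for Asb4, 0.0021 for Peg3, 0.47 for Slc22a3 and 0.031 for Zrsr1. With the library set as a term they were 0.068 for Asb4, 0.011 for Ndn and 0.048 for Peg3. With the block they were -0.0048 for Mcts2, 0.037 for Ndn and 0.041 for Peg3. Upper-quartile scaling gave 0.0010 for Ndn and 0.010 for Peg3, and a mean of at least 1 CPM 0.0047 for Peg3. Without 1 library the ranges were -0.18 to 0.065 for Asb4, -0.060 to 0.0069 for Gnas, -0.011 to 0.068 for Mcts2, -0.025 to 0.12 for Mest, -0.046 to 0.038 for Ndn, -0.046 to 0.064 for Peg3 and -0.081 to 0.080 for Trappc9. Counts of 5 to 59 limit Rtl1 and Magel2, for which 1 count is worth up to 0.0323 CPM.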
